A study of Homo sapiens with 4 samples.

Results

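The aminoacyl-tRNA synthetase genes and 2 scaffold genes of the multisynthetase complex were described in NUPR1 knockdown and control cells of A549, an established line from a human lung adenocarcinoma. Members were taken by gene symbol from a list of 38 names, a rule that uses no measured value. The count table held 37 of them among 19399 rows: 20 genes of cytosolic enzymes, 15 of mitochondrial enzymes and the scaffold genes AIMP1 and AIMP2. MARS2 was not analysed here. NUPR1, also called p8, is a small stress-induced nuclear protein, and the study asked about its part in autophagy in cancer cells. The knockdown group had 2 libraries of polyadenylated RNA, 1 single-end and 1 paired-end, and the control group had the same. The labels name neither the reagent used for the knockdown nor the treatment of the control cells. They do not say whether the libraries of a group came from separate cultures.

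The deposited tables hold 1 column per group, so no value had a replicate and the groups could not be tested against each other. In all, 16649863 reads stood under knockdown and 20299441 under control. Levels are CPM (counts scaled to a common depth with TMM factors), and each ratio is knockdown over control on the log2 scale. Their 95% intervals cover counting error only, and an interval away from 0 shows a difference between these columns, not one between the conditions. The targeted gene had 71 reads (4.23 CPM) after knockdown and 197 reads (9.80 CPM) in the control, a log2 ratio of -1.21 (-1.63 to -0.81). Of the 5 epithelial markers found, the keratin genes KRT8 and KRT18 held nearly all reads. KRT8 had 175985 reads (10479 CPM) after knockdown and 176361 reads (8775 CPM) in the control, a log2 ratio of 0.26. KRT18 had 153316 reads (9129 CPM) after knockdown and 162201 reads (8071 CPM) in the control, a log2 ratio of 0.18. CDH1 had 1197 reads (71.3 CPM) after knockdown and 865 reads (43.0 CPM) in the control, a log2 ratio of 0.73. EPCAM was low, with 68 reads (4.05 CPM) after knockdown and 84 reads (4.18 CPM) in the control. The 4 leukocyte markers found summed to 31 reads (1.85 CPM) after knockdown and 25 reads (1.24 CPM) in the control. Alveolar type II markers were low, with 619 reads (36.9 CPM) after knockdown and 637 reads (31.7 CPM) in the control over 7 genes.

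An aminoacyl-tRNA synthetase joins an amino acid to its matching tRNA and so supplies the ribosome with charged tRNA. Most human enzymes have separate genes for the cytosol and the mitochondrion, while GARS and KARS each encode both forms. Class I and class II enzymes have unrelated catalytic folds. Uncharged tRNA activates the kinase GCN2, which phosphorylates eIF2. The transcription factor ATF4 is then translated and, with C/EBP partners, binds composite elements in amino acid response genes, among them many cytosolic synthetase genes. In the cytosol, several of the enzymes sit in the multisynthetase complex, held together by the AIMP proteins.

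The core letters of that composite element, TGATGNAA or TTNCATCA on the other strand, were searched in RefSeq promoter windows (GRCh38.p14), which run from 250 bases before to 50 bases after a start site. Windows were found for 31 of the 37 genes. DARS, LARS, VARS, YARS, AARS2 and VARS2 had no window. The core was present in 7 of the 10 genes with windows that had been listed as ATF4 targets (70.0%). It was found in 0 of 6 other cytosolic genes and in 1 of 13 mitochondrial genes, YARS2. Across all 27305 genes with windows, 4.46% held it in any window, and across protein-coding genes 3.60%. The ATF4 list came from knowledge of ATF4 target genes, so this share is a description of the list and not independent evidence. The 8 matches are printed 5′ to 3′ on the gene's own strand, with the core in capitals and up to 30 bases before it, and as many after it where they lie upstream of the start, to show where these letters lie and in which form.
TARS, chr5:33440937-33440974, plus strand: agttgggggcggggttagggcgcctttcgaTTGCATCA
GARS, chr7:30594815-30594877, plus strand: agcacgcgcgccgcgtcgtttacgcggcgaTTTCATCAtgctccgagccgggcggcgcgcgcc
IARS, chr9:92293698-92293740, minus strand: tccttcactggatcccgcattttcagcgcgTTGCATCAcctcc
CARS, chr11:3057418-3057455, minus strand: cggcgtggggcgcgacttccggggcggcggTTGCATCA
MARS, chr12:57488034-57488071, plus strand: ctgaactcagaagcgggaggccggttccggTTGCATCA
AARS, chr16:70289656-70289723, minus strand: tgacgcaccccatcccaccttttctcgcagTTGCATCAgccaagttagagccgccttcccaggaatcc
NARS, chr18:57621815-57621852, minus strand: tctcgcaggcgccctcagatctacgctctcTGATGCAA
YARS2, chr12:32756057-32756124, minus strand: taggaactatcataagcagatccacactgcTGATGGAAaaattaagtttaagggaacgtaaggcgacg
The matches in CARS, MARS, TARS and NARS spanned or followed the annotated start, and those in IARS and GARS ended at positions -6 and -26, counted from it. In AARS and YARS2 the match lay much farther upstream, ending at -180 and -190. The matches in AARS, CARS, IARS, MARS and TARS had the letters TTGCATCA, and NARS had the same letters on its other strand. Other motifs searched on both strands were CGGAAG, the ETS core, in 18 of 31 genes (58.1%) against 22.6% of all genes and 29.7% of protein-coding genes, and CACGTG, the MYC-type E-box, in AIMP2, CARS2, EARS2 and IARS against 8.78% of all genes and 10.9% of protein-coding genes. The palindromic NRF1 site was in 0 of 31 genes and in 1.52% of all genes. A match of letters is not a bound site.

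The synthetase family differed little between the columns. A mean of 5 CPM or more was reached by 36 of the 37 genes, of which 16 were higher and 20 lower in the knockdown column. Their median log2 ratio was -0.02, with a range of -0.35 to 0.26, beside a median of 0.01 over all 10689 genes at this level. A difference of 0.32 on the log2 scale, which is 25% higher or 20% lower, was used as the lowest threshold. Only CARS passed it as lower in the knockdown column, and 0 members passed it as higher. With library totals alone as scaling, or with the trend of all genes on GC content removed, CARS lay just inside the threshold and 0 members passed. Of all genes at this level, 13.4% passed it as lower and 12.9% as higher, 26.3% in all. A 1.5-fold difference, past which 8.17% of all genes lay, was reached by 0 members. The median size of the log2 ratio, regardless of sign, was 0.11 for the members and 0.18 for all genes. Counting error weighs less on well expressed genes. Among genes with a mean of at least 50 CPM, the median size was 0.09 for 23 members and 0.16 for all 3833 genes, and 1 of the 23 members passed 0.32, beside 19.5% of all genes.

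Counting intervals excluded equal levels for 18 of the 36 genes, 8 of them above and 10 below. The same held for 54.3% of all genes with a mean of at least 5 CPM, 27.9% above and 26.4% below, so the members' count lay near that background. At a mean of at least 50 CPM, intervals held equal levels for 10 of 23 members, with 7 above and 6 below. For all 3833 genes at that level they held equal levels for 1192, with 1393 above and 1248 below. That is a smaller share than among the members. With only library totals as scaling, every log2 ratio would be 0.027 larger, AARS, KARS, LARS and QARS would change sign and the members' median would be 0.01. Whether less RNA of a gene per cell or fewer cells that express it lay behind a lower value cannot be told apart in bulk RNA.

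**Figure D1:**
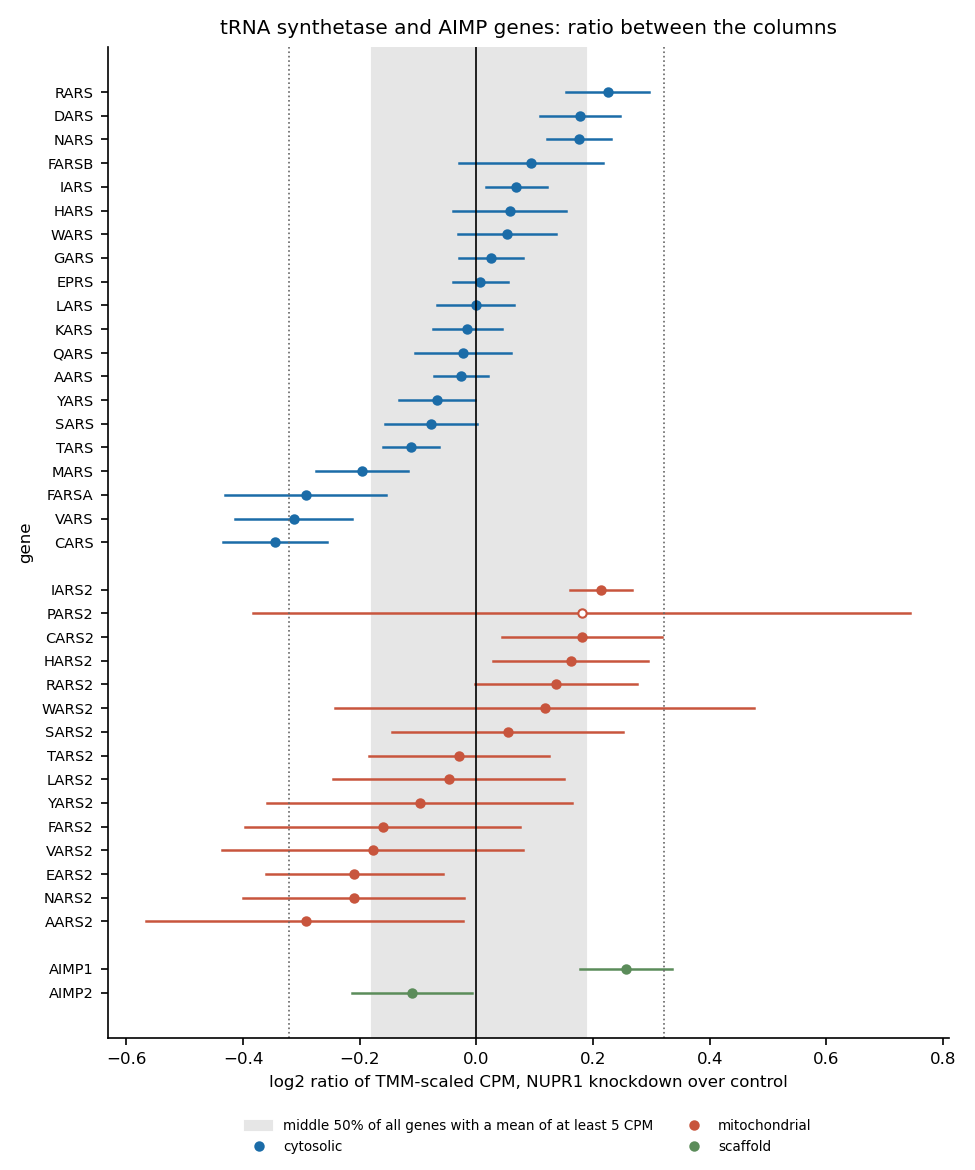
Log2 ratio of TMM-scaled CPM, NUPR1 knockdown over control (horizontal axis), for each of the 37 genes (vertical axis), with 95% counting intervals as bars. The shaded band holds the middle 50% of all genes with a mean of at least 5 CPM, the dotted lines mark -0.32 and 0.32, and the open point is PARS2, under 5 CPM; CARS alone lies past a dotted line.

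Cytosolic enzymes had a median log2 ratio of -0.01, with 9 of 20 genes higher and 11 lower. Under library totals alone this median was 0.02. Intervals were above equal levels for 4 genes, below them for 6 and held them for 10.

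The 12 cytosolic genes listed as ATF4 targets had a median of -0.01, with 5 higher and 7 lower, and 0.01 under library totals alone. ATF4 itself had 215 CPM after knockdown and 225 CPM in the control (log2 ratio -0.07, -0.13 to -0.01). CARS, which charges tRNA with cysteine, had 1717 reads (102 CPM) after knockdown and 2610 reads (130 CPM) in the control. Its log2 ratio of -0.35 (-0.43 to -0.26) was the lowest of the family, and 12.1% of all genes had a lower one. MARS, the methionine enzyme, had 133 CPM after knockdown and 153 CPM in the control, a log2 ratio of -0.20 (-0.28 to -0.12). MARS shares 12.4% of its exon bases with genes on the other strand, DDIT3 and ARHGAP9. TARS, the threonine enzyme, had 377 CPM after knockdown and 407 CPM in the control, a log2 ratio of -0.11 (-0.16 to -0.06). NARS, the asparagine enzyme, went the other way, with 306 CPM after knockdown and 271 CPM in the control, 0.18 (0.12 to 0.23) on the log2 scale. These 4 genes all hold the composite core in their promoter window, and their ratios lay on both sides of 0. Over the 7 listed genes with the core, the median was -0.03, with 3 higher and 4 lower.

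The other ATF4-listed genes lay closer to equal levels. IARS (isoleucine) had 334 CPM after knockdown and 319 CPM in the control, a log2 ratio of 0.07 (0.02 to 0.12). YARS (tyrosine) had 205 CPM after knockdown and 215 CPM in the control, -0.07 (-0.13 to -0.003) on the log2 scale. For AARS (alanine), EPRS (glutamate and proline in 1 fused protein), GARS (glycine), LARS (leucine), SARS (serine) and WARS (tryptophan) the intervals held equal levels, with log2 ratios of -0.08 to 0.05. AARS, the most abundant of these by CPM, had 407 CPM after knockdown and 415 CPM in the control.

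Among the 8 cytosolic genes outside the ATF4 list, the median was 0.02 and 4 were higher and 4 lower. VARS, the valine enzyme, had 1366 reads (81.3 CPM) after knockdown and 2031 reads (101 CPM) in the control, a log2 ratio of -0.31 (-0.41 to -0.21). At 1.24-fold lower it lay just inside the line that CARS passed. Adding VARS to the ATF4-listed genes, where it could also be placed, gave a median of -0.03 over 13 genes. FARSA encodes the alpha subunit of the phenylalanine enzyme and had 42.7 CPM after knockdown and 52.3 CPM in the control, -0.29 (-0.43 to -0.15) on the log2 scale. FARSB encodes the beta subunit of the same enzyme and had 60.8 CPM after knockdown and 57.0 CPM in the control, 0.09 (-0.03 to 0.22). Both subunits are needed for the active enzyme. RARS (arginine) had 189 CPM after knockdown and 161 CPM in the control, 0.23 (0.15 to 0.30), the largest ratio of a cytosolic enzyme. DARS (aspartate) had 200 CPM after knockdown and 177 CPM in the control, 0.18 (0.11 to 0.25). For KARS (lysine), QARS (glutamine) and HARS (histidine) the intervals held equal levels, with log2 ratios of -0.02, -0.02 and 0.06.

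The 8 genes of complex enzymes (DARS, EPRS, IARS, KARS, LARS, MARS, QARS and RARS) had a median of 0.003, with 4 higher and 4 lower, and intervals above equal levels for 3 and below for 1. The 12 cytosolic genes outside the complex had a median of -0.05, with 5 higher and 7 lower, and intervals above for 1 and below for 5. Their difference was not tested. Catalytic class gave medians of -0.02 for 9 class I genes and 0.005 for 10 class II genes in the cytosol, with EPRS, which has both kinds of domain, left out. The scaffold genes differed from each other. AIMP1, which is also the precursor of a secreted cytokine, had 2561 reads (152 CPM) after knockdown and 2566 reads (128 CPM) in the control. Its log2 ratio of 0.26 (0.18 to 0.34) was the highest among the members, and 18.1% of all genes had a higher one. AIMP2 had 81.3 CPM after knockdown and 87.8 CPM in the control, -0.11 (-0.21 to -0.01). AIMP2 shares 28.9% of its exon bases with EIF2AK1 on the other strand and AIMP1 shares 11.6% with TBCK, so some of their reads may belong to those genes if strand was not used.

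The mitochondrial enzymes had a median log2 ratio of -0.04 over 14 genes with a mean of at least 5 CPM, with 6 higher and 8 lower. Under library totals alone it was -0.01. Intervals were above equal levels for 3 genes, below them for 3 and held them for 8. IARS2 (isoleucine) had 5524 reads (329 CPM) after knockdown and 5701 reads (284 CPM) in the control, a log2 ratio of 0.21 (0.16 to 0.27). CARS2 (cysteine) had 50.3 CPM after knockdown and 44.4 CPM in the control, 0.18 (0.04 to 0.32). HARS2 (histidine) had 53.7 CPM after knockdown and 48.0 CPM in the control, 0.16 (0.03 to 0.29). Lower in the knockdown column were EARS2, NARS2 and AARS2. EARS2, which loads glutamate on the mitochondrial glutamate and glutamine tRNAs, had 36.5 CPM after knockdown and 42.2 CPM in the control, -0.21 (-0.36 to -0.06). NARS2 (asparagine) had 395 reads after knockdown and 547 reads in the control, -0.21 (-0.40 to -0.02). AARS2 (alanine) had 191 reads (11.4 CPM) after knockdown and 280 reads (13.9 CPM) in the control, -0.29 (-0.57 to -0.02). RARS2, WARS2, SARS2, TARS2, LARS2, YARS2, FARS2 and VARS2 had log2 ratios of -0.18 to 0.14 with intervals that held equal levels. SARS2 shares 46.2% of its exon bases with AC011455.2 on its own strand and 10.8% with MRPS12 on the other strand, and VARS2 shares 22% with GTF2H4 on its own strand, so reads of these genes may be split. PARS2, with 54 reads after knockdown and 57 reads in the control, stayed under 5 CPM and out of these counts.

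Mitochondrial synthetase reads were unevenly spread. The 15 genes together took 0.0696% of all reads after knockdown and 0.0638% in the control. After TMM scaling, the log2 ratio of their sums was 0.10 (0.06 to 0.13). IARS2 alone gave 47.7% of the mitochondrial synthetase reads after knockdown and 44.1% in the control. Without IARS2 the log2 ratio of the sums, also after scaling, was -0.0002 (-0.05 to 0.05). The 20 cytosolic genes took 0.413% of all reads after knockdown and 0.407% in the control, -0.01 (-0.02 to 0.01) after scaling.

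Genes for the same amino acid in the cytosol and the mitochondrion were then set side by side. The difference of their 2 log2 ratios does not depend on the scaling of the columns. Of 16 pairs with both genes in the table, the cytosolic gene had the higher ratio in 7 and the lower in 9, and the median difference was -0.07. No limit on level was set here, so the 9 include EPRS minus PARS2 at -0.17 (-0.74 to 0.39), with PARS2 under 5 CPM. The intervals of 12 pairs held 0. For cysteine, CARS had the lower ratio and CARS2 the higher, a difference of -0.53 (-0.69 to -0.36). For isoleucine, IARS minus IARS2 was -0.15 (-0.22 to -0.07). For asparagine the order was the opposite, with NARS minus NARS2 at 0.39 (0.19 to 0.58). Glutamate also had the cytosolic gene higher, EPRS minus EARS2 at 0.22 (0.06 to 0.38). Within the phenylalanine enzyme, FARSA minus FARSB was -0.39 (-0.57 to -0.20), and between the scaffold genes AIMP1 minus AIMP2 was 0.37 (0.24 to 0.50). EPRS and FARS2 each stand in 2 of the 16 pairs, so these are not independent. Cytosolic and mitochondrial enzymes were not shown to differ as groups, since 1 column per group allows no test of that difference.

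**Figure D2:**
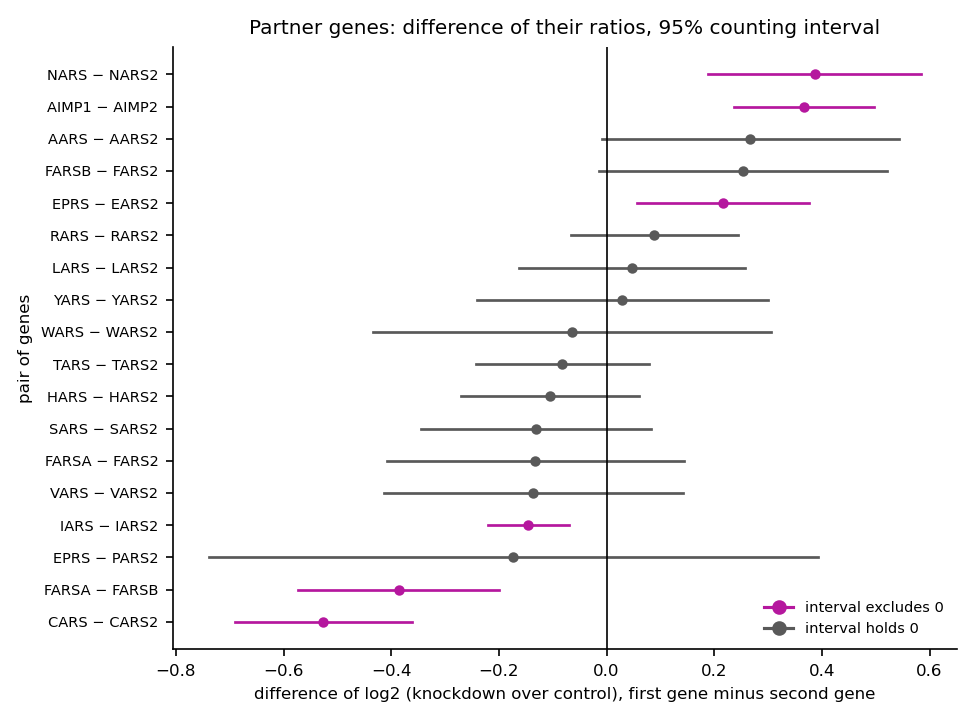
Difference between the log2 ratios (knockdown over control) of partner genes, first gene minus second gene (horizontal axis), for 16 cytosolic and mitochondrial pairs, the phenylalanine enzyme's subunits and the scaffold genes (vertical axis), with 95% counting intervals as bars. CARS minus CARS2 lies lowest at -0.53 and NARS minus NARS2 highest at 0.39.

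HARS and HARS2 are neighbours that point away from each other, and their start sites in the RefSeq windows leave 84 bases between them. This stretch is printed because both genes are read outward from it, with no motif in capitals.
HARS to HARS2, chr5:140691371-140691454, plus strand: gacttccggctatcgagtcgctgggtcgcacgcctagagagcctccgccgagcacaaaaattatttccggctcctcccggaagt
An ETS core lies near each end of it on the plus strand, as CTTCCG at the HARS end and CGGAAG at the HARS2 end. HARS had 95.3 CPM after knockdown and 91.6 CPM in the control, 0.06 (-0.04 to 0.15), beside the 0.16 of HARS2. The interval of their difference, -0.11 (-0.27 to 0.06), held 0. Their coding sequences (GENCODE release 29) were identical at 75.9% of aligned bases with a longest identical run of 24 bases, against 57.9% to 64.2% for the other pairs. Reads could be shared between HARS and HARS2 if placed by similarity, and 11.7% of the exon bases of HARS2 overlap HARS on the other strand.

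Ratios of the members varied with the GC content of their transcripts. Across 36 genes, the log2 ratio and the GC content of the principal GENCODE transcript had a Pearson correlation of -0.62 and a Spearman correlation of -0.58, and -0.53 (Pearson) without the 2 genes farthest from the median GC. Over the 20 cytosolic genes Pearson was -0.73 and Spearman -0.68, and over the 14 mitochondrial genes -0.39 and -0.36. Over 9927 genes of the whole table they were -0.19 and -0.22. Genes are not independent replicates, and all points share the same pair of columns. Of the 12 members with the lowest GC (35.6% to 43.9%), 9 had a higher level after knockdown and 3 a lower one, and the median was 0.11. Among the 12 in the middle (44.3% to 53.5%), 4 were higher and 8 lower (median -0.04). Among the 12 with the highest GC (53.7% to 62.6%), 3 were higher and 9 lower (median -0.11). The table as a whole had the same slant. Median log2 ratios were 0.08 in the lowest and -0.12 in the highest of 10 equal bins of genes by GC. Within the 16 cytosolic and mitochondrial pairs, the gene with the lower GC had the higher ratio in 9. Some pairs hardly differed in GC, so their order says little about it. IARS had 43.6% and IARS2 43.8%, and NARS had 44.3% and NARS2 43.9%, both pairs outside the 9. RARS had 41.4% and RARS2 41.9%, a pair within the 9.

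GC content of the coding sequences is given for some genes with low or high ratios, and for FARSB as the partner of FARSA. VARS was 61.5% and FARSA 61.9% GC over the coding bases, CARS 52.2%, and FARSB, RARS and AIMP1 41.6%, 41.1% and 41.7%. AARS2, with a log2 ratio of -0.29, was 61.7%, and IARS2, with 0.21, was 44.4%. Other members lay against this order. SARS2 had the highest coding GC, 62.2%, with a log2 ratio of 0.05, while TARS (43.6%) and NARS2 (44.9%) had low coding GC and ratios of -0.11 and -0.21. CARS2 had 56.0% with a ratio of 0.18, and HARS2 had 50.3% with 0.16. For CARS, VARS, FARSA, RARS and AIMP1 the middle 90 coding bases are printed (GRCh38, GENCODE release 29, introns removed where the coordinates span any), with every G and C in capitals, to show the base composition behind these values.
CARS, chr11:3018729-3019207, minus strand: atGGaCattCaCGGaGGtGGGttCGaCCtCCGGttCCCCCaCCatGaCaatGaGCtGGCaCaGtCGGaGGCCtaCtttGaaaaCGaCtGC
VARS, chr6:31782580-31782756, minus strand: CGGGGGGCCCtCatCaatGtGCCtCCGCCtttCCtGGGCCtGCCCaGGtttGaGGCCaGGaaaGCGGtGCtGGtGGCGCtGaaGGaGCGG
FARSA, chr19:12928376-12928542, minus strand: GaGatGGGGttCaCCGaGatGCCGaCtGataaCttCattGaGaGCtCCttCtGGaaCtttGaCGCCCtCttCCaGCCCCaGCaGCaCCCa
RARS, chr5:168500714-168502083, plus strand: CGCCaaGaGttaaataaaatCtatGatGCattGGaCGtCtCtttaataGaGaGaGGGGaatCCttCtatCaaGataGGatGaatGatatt
AIMP1, chr4:106331704-106331793, plus strand: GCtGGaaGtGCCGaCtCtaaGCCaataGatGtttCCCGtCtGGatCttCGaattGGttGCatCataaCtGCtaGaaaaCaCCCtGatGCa
VARS had 61 G or C among the 90 bases, while RARS had 32. The AIMP1 and FARSA stretches, with 42 and 50, were closer to each other than the 2 whole coding sequences. After the trend on GC over all genes was removed, the log2 ratio of VARS was -0.20, that of FARSA -0.19, that of RARS 0.16 and that of AIMP1 0.17. CARS was at -0.32, just inside the threshold, IARS2 at 0.15 and CARS2 at 0.20. IARS came to 0.01, NARS to 0.12 and TARS to -0.17. The difference between FARSA and FARSB became -0.22, that between AIMP1 and AIMP2 0.27, and that between CARS and CARS2 stayed at -0.52. The members' Pearson correlation with GC was then -0.35, that of the cytosolic genes -0.50 and that of the mitochondrial genes -0.08. What part GC content, or anything that goes with it, has in these ratios was not tested beyond this.

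**Figure D3:**
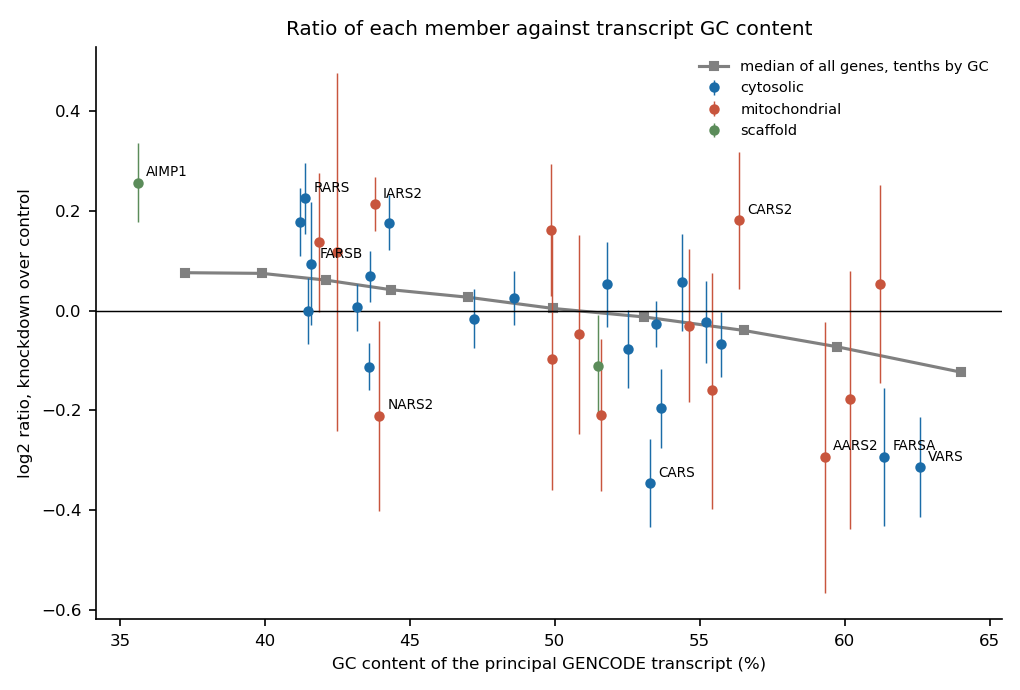
Log2 ratio, knockdown over control, of each of the 36 genes with a mean of at least 5 CPM (vertical axis, 95% counting intervals as bars) against the GC content of its principal GENCODE transcript in percent (horizontal axis). Grey squares are medians of all genes in 10 bins by GC, which run between 0.08 and -0.12; AIMP1 lies highest at the lowest GC, and VARS and FARSA lie low at the highest.

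Levels per length, as deposited RPKM, spread over a wide range that was much the same in both columns. Cytosolic genes had a median of 42.6 RPKM after knockdown and 43.6 RPKM in the control. Mitochondrial genes had medians of 7.51 RPKM after knockdown and 8.11 RPKM in the control. AARS and TARS stood at the top, AARS with 122 RPKM in both columns and TARS with 122 RPKM after knockdown and 129 RPKM in the control. GARS, with 113 RPKM after knockdown and 109 RPKM in the control, came next. IARS2, at 94.9 RPKM after knockdown and 80.1 RPKM in the control, was the mitochondrial gene with the highest level and lay among the upper cytosolic genes. RARS2 followed among mitochondrial genes at 24.4 RPKM after knockdown and 21.8 RPKM in the control. At the low end were PARS2, with 1.38 RPKM after knockdown and 1.19 RPKM in the control, and VARS2, with 0.37 RPKM after knockdown and 0.41 RPKM in the control.

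Deposited lengths of 8 members were over 1.5 times the length of their principal GENCODE transcript. VARS has a deposited length of 26225 bases and VARS2 of 35515 bases, 6.08 and 8.72 times those transcripts. SARS has one of 4884 bases, 2.64 times its transcript, and HARS, MARS, YARS, SARS2 and LARS have 1.52 to 1.68 times. The deposited RPKM of VARS was 3.17 after knockdown and 3.86 in the control. With GENCODE lengths and library totals alone as scaling, its RPKM was 19.0 after knockdown and 23.2 in the control. SARS had 76.4 on that scale after knockdown and 79.1 in the control, where the deposited RPKM gave 29.4 after knockdown and 30.4 in the control. By GENCODE length KARS stood first, with 126 after knockdown and 125 in the control, and TARS, whose deposited length is 0.734 of its GENCODE transcript, had 88.1 after knockdown and 93.4 in the control. Ratios between the columns do not depend on length.

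**Figure D4:**
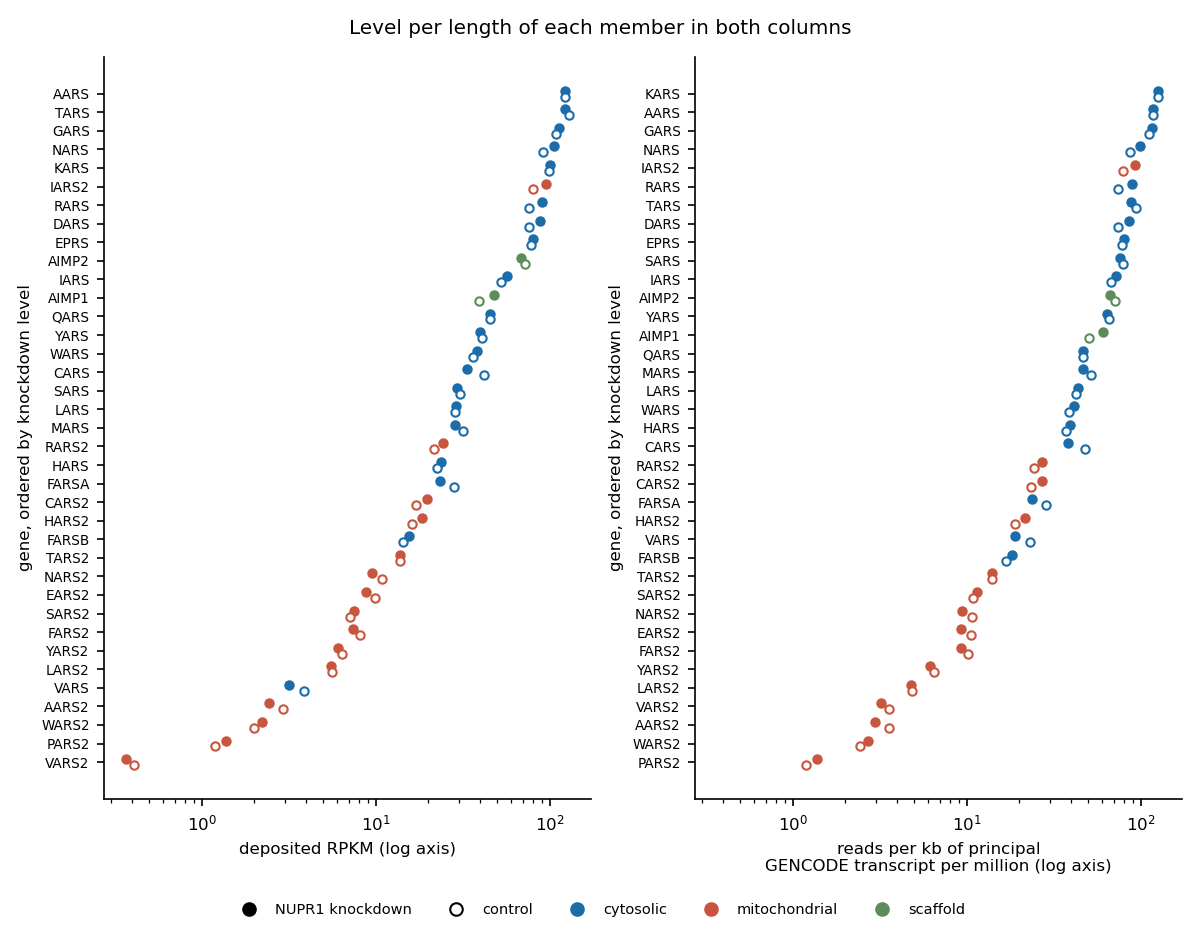
Level of each of the 37 genes per length on log axes, knockdown as filled points and control as open points. Deposited RPKM is on the left. On the right is RPKM with the length of the principal GENCODE transcript, scaled by library totals alone, without TMM factors. Mitochondrial genes other than IARS2 lie below most cytosolic genes, and VARS lies higher on the right, at 19.0 after knockdown and 23.2 in the control.

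Other genes of the same pathways were counted in 5 lists, at a mean of at least 5 CPM and beside the 12.9% of all genes that passed 0.32 on the log2 scale as higher and the 13.4% that passed it as lower. ATF4 target genes other than synthetases numbered 34, of which 2 passed 0.32 as higher and 7 as lower, with a median of -0.03. Past 1.5-fold, where 8.17% of all genes lay, were DDIT3, SLC6A9 and PYCR1. DDIT3, the pro-apoptotic factor CHOP, had 295 reads after knockdown and 232 reads in the control, 0.61 (0.35 to 0.86) on the log2 scale. The glycine transporter gene SLC6A9 had 87 reads after knockdown and 170 reads in the control, -0.71 (-1.10 to -0.33). PYCR1, a proline synthesis enzyme, had 494 reads after knockdown and 928 reads in the control, -0.65 (-0.81 to -0.49). The median size of the ratios was 0.20 in this list, 0.18 in all genes and 0.07 in the 12 ATF4-listed synthetase genes. These sizes were not matched for level. The 12 synthetase genes had at least 102 CPM in each column, while SLC6A9 had 5.18 CPM after knockdown and 8.46 CPM in the control. DDIT3 overlaps MARS on the opposite strand, and their ratios had opposite signs.

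The eIF2 kinases and the rest of the GCN2 arm had 11 of 18 genes higher, 1 of them past 0.32, and a median of 0.03. Cytosolic partners of aminoacylation and elongation had 13 of 23 higher and a median of 0.01. Only EEF1E1 in this list passed 0.32, as lower, with a log2 ratio of -0.35 and a transcript GC content of 36.9%. EEF1E1 was not on the member list, so the scaffold values above leave it out. Mitochondrial translation factors and tRNA-charging partners had 18 of 26 higher, 3 of them past 0.32, and a median of 0.07, where the mitochondrial synthetases had -0.04. MYC-regulated genes of ribosome making had 21 of 33 lower, 4 of them past 0.32, and a median of -0.07. Of these only BOP1, a ribosome assembly factor, passed 1.5-fold, with 753 reads after knockdown and 1355 reads in the control (-0.59, -0.72 to -0.46). Differences between these lists and the synthetase genes were not tested. The medians compared here were not adjusted for GC content.

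**Figure D5:**
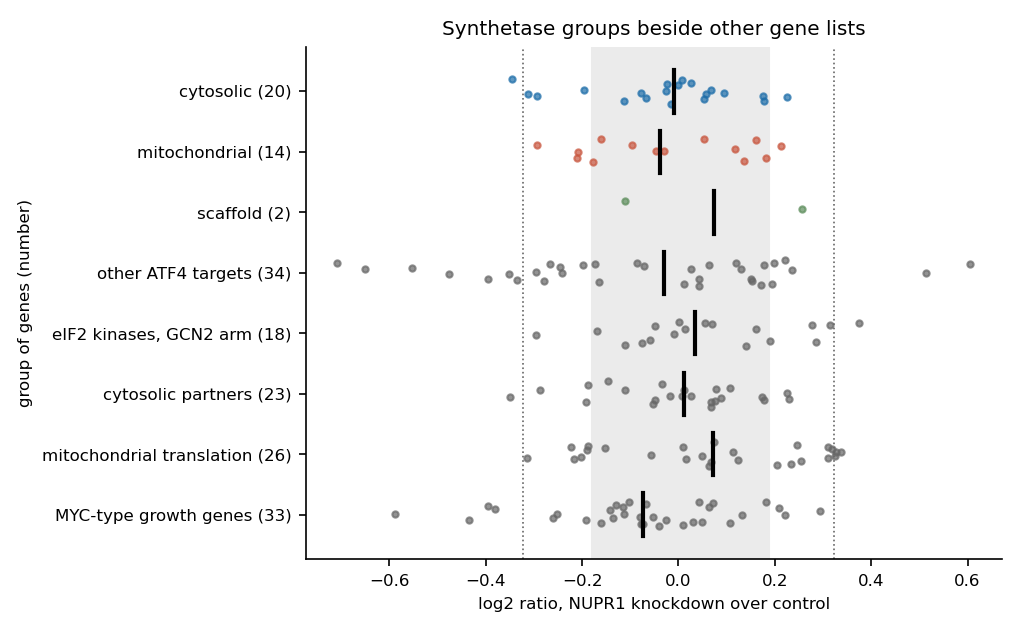
Log2 ratio, knockdown over control (horizontal axis), of each gene in the 3 synthetase groups and 5 other lists (vertical axis, number of genes in brackets), with medians as black bars, the middle 50% of all genes shaded and 0.32 dotted on both sides. Synthetase genes lie between -0.35 and 0.26, while other ATF4 targets reach -0.71 and 0.61.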

How the data were processed

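Polyadenylated RNA of A549 cells was sequenced as 4 libraries, 2 per group, on Illumina GAIIx or HiSeq 2000 instruments per the labels. The authors deposited whole-number read counts per gene and RPKM values, each with 1 column per group. TopHat2 2.0.10, edgeR 3.2.2 and hg19 are named per the submitters' processing notes. For the counter, the annotation, the strand setting and any pooling of libraries, the step is not given in the sources used here. The knockdown column's name lacks 1 letter of its libraries' titles and was matched by the rest. Among the counts, 26 symbols turned into dates were restored and 3 broken rows were left out, which left 16635336 and 20289107 reads for knockdown and control.

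TMM factors (1.01 and 0.991) were computed with edgeR 4.0.16 in R 4.3.3 over 14175 rows kept by its expression filter. Intervals at 95%, Poisson for levels and exact conditional (Clopper-Pearson) for ratios, were computed with scipy 1.17.1. No pseudocount was added. A single read is worth 0.0595 CPM for knockdown and 0.0498 CPM for control. Reads carry no molecular identifiers. The planned edgeR quasi-likelihood test needed a column per library and was not possible. Calls are therefore differences past 0.32 on the log2 scale (25% higher or 20% lower), 1.5-fold or 2-fold among genes with a mean of at least 5 CPM. GC content and coding sequences came from GENCODE release 29 (GRCh38) by symbol, for 92.9% of genes at that level and every member there. Promoters came from RefSeq (GRCh38.p14). The tables carry no coordinates. Coding bases were compared because no protein sequences were used here. The ratio procedure was tested on simulated counts.

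Members and lists were chosen with earlier results of these data known. The text may name every member, NUPR1, ATF4 and, per list, up to 4 genes with the largest ratio past 1.5-fold. Genes named as overlapping a member, and EEF1E1, lie outside that rule. Alternatives covered scaling, pseudocounts of 0.1 and 1 on RPKM, filters, and trends on length, level and GC.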

Additional observations from a re-analysis of the deposited data

How the results depend on the processing

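Medians of the member groups moved by less than 0.05 under all 14 alternatives that bear on them. Most lie so near 0 that their sign depends on scaling. Library totals alone turned the medians of all members, cytosolic and ATF4-listed genes above 0, as did RPKM plus 0.1 or plus 1, and AARS, KARS, LARS and QARS changed sign with them. With the GC trend removed EPRS and QARS changed sign, EPRS also did with upper quartile factors, and 6 members moved beyond counting error: IARS to 0.01, NARS to 0.12, TARS to -0.17, VARS to -0.20, IARS2 to 0.15 and AIMP1 to 0.17. The median of the complex enzymes was below 0 with upper quartile factors and with the trend on level or GC removed. The count of members lower by at least 0.32 on the log2 scale was 1 (CARS). It became 2 with upper quartile factors and 0 with library totals alone, with RPKM plus 0.1 or plus 1, and with the GC trend removed. Counts over all genes moved more than 1.5 times under 3 settings. With RPKM plus 1, 929 genes were lower by 0.32, 229 lower by 1.5-fold, and 57 higher and 55 lower by 2-fold. With a mean of at least 1 CPM, 2224 were lower by 0.32, 747 higher and 938 lower by 1.5-fold, and 259 higher and 305 lower by 2-fold. With no filter, 3368 were higher and 3678 lower by 0.32, 1917 higher and 2093 lower by 1.5-fold, and 1069 higher and 992 lower by 2-fold. Fewer or more low genes entered by construction with the filters; for the other settings the cause was not tested. Removing the GC trend, and GENCODE lengths in place of deposited lengths, were chosen after seeing the data. No paired analysis was possible because each group is 1 column. The layout block and leaving out each library were not run for the same reason. Counting error limits the low mitochondrial genes most: the interval of PARS2 ran over -0.38 to 0.74.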
